A study of Mus musculus with 12 samples.

Results

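Genes that neutrophils and monocytes are known for, namely S100a8, S100a9, Clec4e, Csf3r, Itgam, Cybb, Ly6c2, Ptafr and Thbd, were followed through sorted mouse T cells in a diet study. These 9 genes of the 52459 in the count table were chosen by name, with earlier results of these data known. Each was read in all 12 libraries. S100a8 and S100a9 encode the subunits of calprotectin, a calcium-binding protein that fills the cytosol of neutrophils and is released in inflammation. Clec4e (Mincle) is a C-type lectin that senses microbial glycolipids and signals from dying cells, and Csf3r is the receptor for granulocyte colony-stimulating factor, which drives neutrophil production. Itgam (CD11b) pairs with Itgb2 to form the integrin Mac-1, Cybb is the catalytic subunit of the phagocyte oxidase that makes superoxide, and Ly6c2 encodes part of the Ly6C surface antigen of inflammatory monocytes. Ptafr is the receptor for the lipid mediator platelet-activating factor, and Thbd (thrombomodulin) is a surface receptor for thrombin on endothelium and on some monocytes and dendritic cells. Neutrophils and monocytes enter the liver in steatohepatitis, the fatty liver disease that a methionine- and choline-deficient (MCD) diet brings on in mice.

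The libraries fell into 6 groups of 2. Wild-type C57BL/6 mice and mice of genotype γδTCR-/- were put on a control or an MCD diet at 7 weeks of age, for 6 weeks. γδ T cells came from wild-type mice on the control diet (replicates 6 and 7) or the MCD diet (replicates 2 and 4). CD4+ T cells came from wild-type mice on the control (2 and 3) or MCD diet (1 and 3), and from γδTCR-/- (knockout) mice on the control (1 and 2) or MCD diet (1 and 2). Cells were sorted by flow cytometry straight into lysis buffer. The labels name no tissue, no sex, no sort gate and no pooling, and they do not say that replicates are separate mice, so p-values measure only the spread between these samples. The γδ MCD library called replicate 2 here is labelled D2-D1_GDT, and D1 is also the label of wild-type CD4+ MCD replicate 1, so its number is uncertain and served only as a name.

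Total counts were 17035638 to 23203603 per library, of which mitochondrial genes took 40.8% to 56.8%. The γδ MCD libraries had 8989 and 10125 genes with at least 10 counts, against 11903 to 13402 in the other 10 libraries. Trdc, the δ-chain constant gene, read 538 to 733 CPM (counts scaled by effective library size) in the 4 γδ libraries and at most 7.93 CPM in CD4+ libraries. Cd4 read 632 to 1448 CPM in CD4+ libraries and at most 4.29 CPM in γδ libraries. The labelled T cell types thus carried their defining genes, while the 9 genes described here are better known from myeloid cells. In bulk RNA of this kind, fewer cells of a type and less RNA per cell cannot be told apart.

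The 9 genes are spread over 7 chromosomes of the GRCm38 build. S100a8 (chr3:90668978-90670035, plus strand) and S100a9 (chr3:90692632-90695721, minus strand) are neighbours, 22596 bases apart. Csf3r (chr4:126024550-126044440) and Ptafr (chr4:132564067-132582683) are both on the plus strand of chromosome 4. Clec4e lies at chr6:123281789-123289870 (minus), Cybb at chrX:9435252-9487771 (minus) and Thbd at chr2:148404466-148408188 (minus). Itgam (chr7:128062640-128118491, plus) is overlapped on its own strand by the protein-coding gene model Gm49368, so reads in the shared stretch may be split or dropped. Ly6c2 (chr15:75108158-75111970, minus) lies 59327 bases from its near-identical copy Ly6c1, and counts of the pair are uncertain for that reason.

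The 250 bases before the RefSeq transcription start are shown for S100a8, S100a9 and Clec4e, the 3 genes with the largest fold between diets in γδ T cells, because each holds a match to a binding motif of a myeloid transcription factor. Sequences are from RefSeq on GRCm38.p6, 5′ to 3′ on the gene's strand, and capitals mark the match. The S100a8 stretch is chr3:90668821-90669070 (plus), the S100a9 stretch chr3:90695722-90695971 (minus) and the Clec4e stretch chr6:123289872-123290121 (minus).
S100a8: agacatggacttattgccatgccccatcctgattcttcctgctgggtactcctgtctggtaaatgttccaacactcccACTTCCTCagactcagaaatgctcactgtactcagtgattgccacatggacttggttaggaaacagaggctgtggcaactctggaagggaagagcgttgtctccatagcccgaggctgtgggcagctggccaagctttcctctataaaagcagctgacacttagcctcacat
S100a9: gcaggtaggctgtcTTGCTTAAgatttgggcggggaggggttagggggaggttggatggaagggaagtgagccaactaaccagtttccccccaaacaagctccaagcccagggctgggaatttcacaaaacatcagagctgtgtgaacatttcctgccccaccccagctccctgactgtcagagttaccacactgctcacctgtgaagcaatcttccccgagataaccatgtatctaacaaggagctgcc
Clec4e: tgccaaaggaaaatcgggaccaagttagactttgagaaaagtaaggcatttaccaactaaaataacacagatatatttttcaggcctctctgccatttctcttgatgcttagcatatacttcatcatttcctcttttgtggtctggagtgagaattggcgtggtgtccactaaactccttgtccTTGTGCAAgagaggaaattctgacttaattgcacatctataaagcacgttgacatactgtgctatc
The capitals in S100a8 are the reverse complement of GAGGAAGT, a motif of PU.1, 172 to 165 bases before the start. Those in S100a9 match TTGCNNAA, a motif of the C/EBP factors, 236 to 229 bases before the start. Those in Clec4e are the reverse complement of a match to the same motif, 66 to 59 bases before the start. Of 32851 mouse promoters of that length, 2.44% hold GAGGAAGT and 9.56% hold TTGCNNAA on either strand. A further pair of motifs was searched on both strands, TGANTCA (AP-1), held by 6.75% of promoters, and that of NF-kB, held by 1.41%. Of the 8 genes with an entry, Cybb held TGANTCA, Ly6c2 held GAGGAAGT, and Csf3r, Itgam and Ptafr held none of the 4 motifs. The RefSeq start lay inside the gene span given above for Cybb, Csf3r and S100a8, at 18447, 109 and 93 bases from where the span begins. Their windows thus lay partly or, for Cybb, wholly inside the span. A match describes the letters of the window and is no evidence of binding.

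On the MCD diet the γδ libraries carried more reads of 8 of the 9 genes on average, with the largest folds for calprotectin and Clec4e. In CPM, libraries of the diets did not overlap for 6 genes (S100a8, S100a9, Clec4e, Csf3r, Cybb and Ptafr), all higher on the MCD diet. They overlapped for Itgam, Ly6c2 and Thbd. For S100a9 the separation depends on the scaling, because in raw counts control replicate 7 (48) was above MCD replicate 2 (34). Over all 16218 genes tested, 11.1% were higher without overlap and 22.1% were lower without overlap. No member passed the adjusted threshold of 0.05 in edgeR's quasi-likelihood test, and neither did any other gene (0%). At an unadjusted p below 0.05, 4 members were higher (S100a8, Clec4e, Cybb and Ptafr) and 0 lower, against 6.29% and 11.2% of all genes. DESeq2 called 2105 of the 16218 genes and limma-voom 63, and edgeR with no filter called 555 of 25883. Calls of single members in these alternatives, given below, stand beside those shares. The members' median log2 fold change was 2.55, beside -0.06 over all genes. Their diet median in knockout CD4+ T cells was 3.05, the value of S100a8 at 2 counts against 0, beside 0.03 over all genes. The members were chosen with earlier results of these data known, so their shares beside those of all genes are only descriptive. All 9 members passed the filter on low counts. S100a8 and S100a9 passed only through the γδ MCD libraries, so their higher level there was partly fixed by passing.

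**Figure D1:**
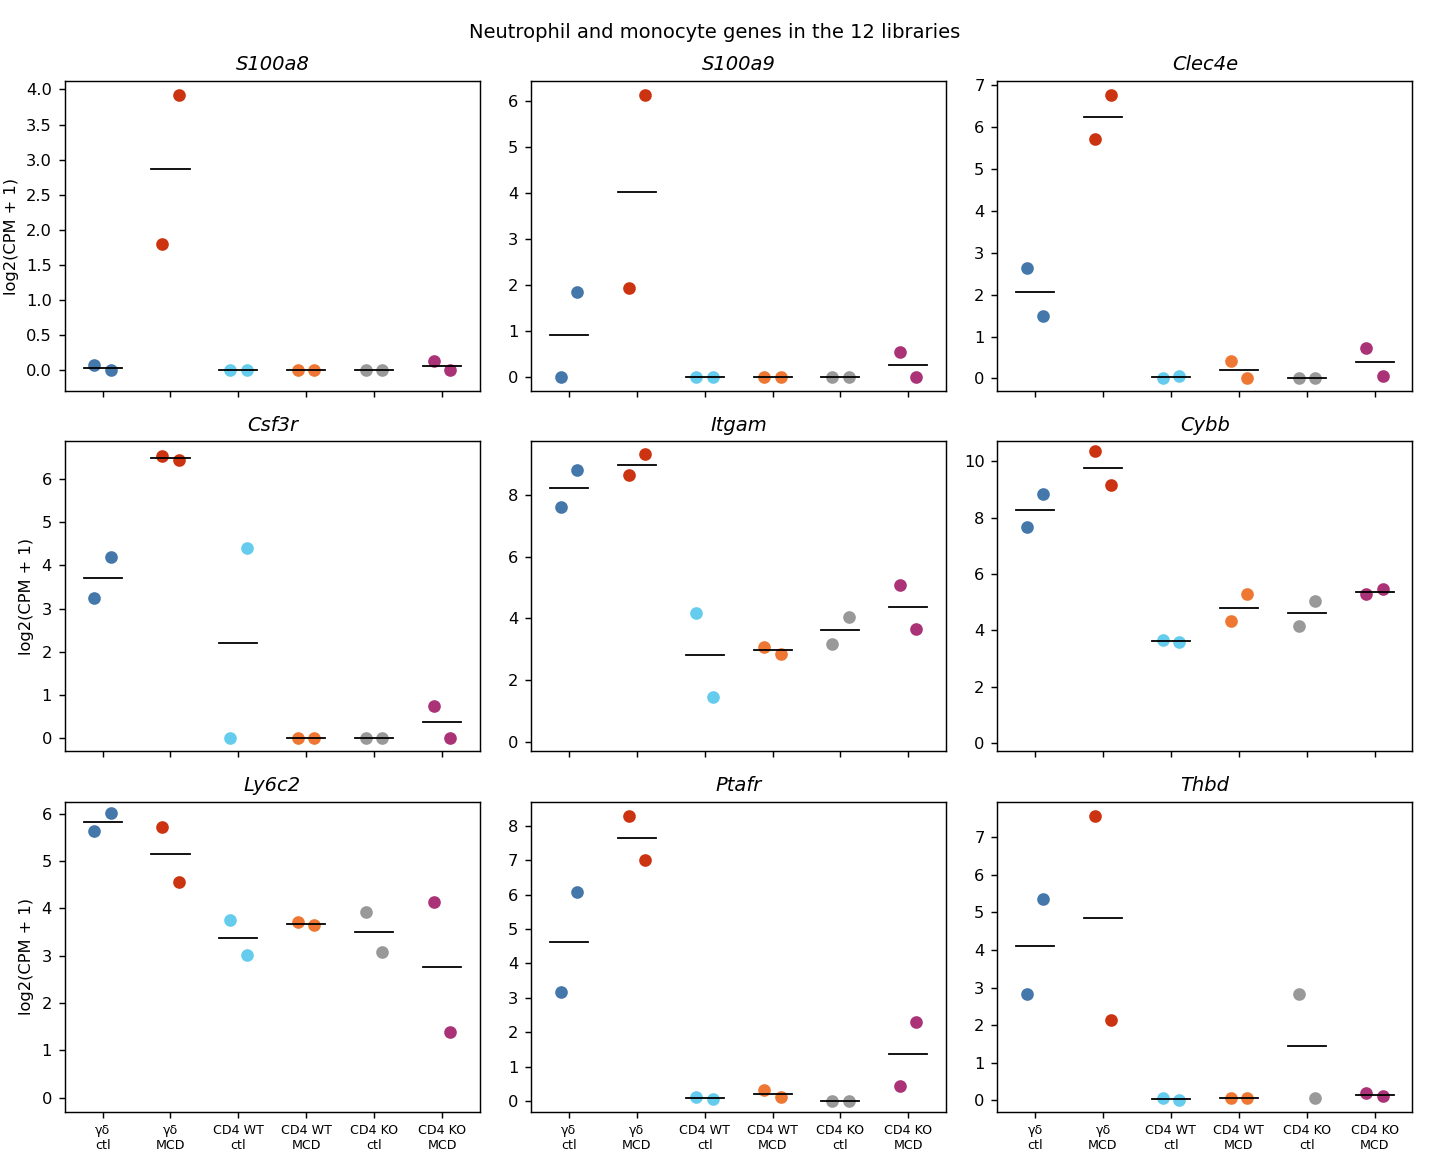
Level of each of the 9 genes in the 12 libraries as log2(CPM + 1), 1 panel per gene; points are libraries, lines are group means, and each panel has its own vertical scale. Of the 6 groups, γδ T cells on the MCD diet have the highest mean for 8 genes and γδ T cells on the control diet for Ly6c2.

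Calprotectin RNA was found mainly in the γδ libraries of MCD-fed mice. There were 48 counts of S100a9 in 1 γδ control library and at most 10 counts of either subunit in any CD4+ library. S100a8 had 1 and 0 counts in the γδ control libraries and 30 and 211 counts in the γδ MCD libraries. In CPM these MCD libraries read 2.48 and 14.2, and the control libraries 0.0509 and 0. The MCD libraries were both above the controls but differed 5.72-fold from each other. Pooled, 241 counts against 1 gave a ratio of 340 with an exact 95% interval of 60.5 to 13500, which covers counting error only. The log2 fold change was 8.02 (SE 3.15, adjusted p = 0.225 in edgeR). S100a8 was called in 2 of 21 alternatives, limma on log2(FPKM + 1) (adjusted p = 0.0354) and on log2(FPKM + 0.1) (0.0249). In CD4+ T cells S100a8 had 2 counts in knockout MCD replicate 1 and 0 in the other 7 libraries, where 3 counts would be 0.13 to 0.147 CPM.

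S100a9 had 0 and 48 counts in the γδ control libraries and 34 and 1019 in the γδ MCD libraries, which is 0 and 2.60 CPM against 2.81 and 68.5 CPM. The groups were separated by only the step from 2.60 to 2.81 CPM, which depends on the scaling, as the raw counts were 48 and 34. The MCD replicates differed 24.4-fold. The means were 35.6 ± 46.4 CPM and 1.30 ± 1.84 CPM (SD, n = 2 each), a 27.4-fold difference with a log2 fold change of 4.77 (SE 2.55, adjusted p = 0.343 in edgeR). Without MCD replicate 4 the log2 fold change was 1.12 (adjusted p = 0.901). CD4+ T cells held 10 counts in knockout MCD replicate 1, the same library that held S100a8, and 0 in the other 7. The counts of S100a9 were 1.13 times those of S100a8 in MCD replicate 2 and 4.83 times in MCD replicate 4, so the subunits did not keep 1 ratio.

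Clec4e, the lectin receptor, was also higher in both MCD libraries. It read 5.19 and 1.79 CPM in the γδ control libraries and 51.3 and 107 CPM in the γδ MCD libraries. The lower MCD library stood well above the higher control. The means of 79.0 ± 39.2 and 3.49 ± 2.41 CPM (SD, n = 2) differed 22.6-fold, with a log2 fold change of 4.50 (SE 1.58, adjusted p = 0.202 in edgeR). Clec4e was called in 2 of 22 alternatives, with DESeq2 (adjusted p = 0.00568) and with limma on log2(FPKM + 1) (0.0162). CD4+ libraries held 0 to 14 counts of Clec4e, at most 0.645 CPM.

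Csf3r was the most even gene within the MCD diet. It read 8.5 and 17.2 CPM in the γδ control libraries and 92.1 and 85.2 CPM in the γδ MCD libraries. The diets stood apart and the MCD replicates were within 1.08-fold of each other. The 6.90-fold difference between means (88.7 ± 4.91 and 12.9 ± 6.17 CPM, SD, n = 2) did not pass (log2 fold change 2.79, SE 1.92, adjusted p = 0.45). A single CD4+ library, wild-type control replicate 3, held 462 counts of Csf3r or 20.0 CPM, above both γδ control libraries. Its replicate held 0 counts, as did 5 further CD4+ libraries, and knockout MCD replicate 1 held 15.

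Ptafr, the platelet-activating factor receptor, read 7.94 and 66.7 CPM in the γδ control libraries and 310 and 128 CPM in the γδ MCD libraries. Both MCD libraries were above both controls. The control libraries differed 8.40-fold from each other. Means of 219 ± 129 and 37.3 ± 41.5 CPM (SD, n = 2) gave a 5.87-fold difference (log2 fold change 2.55, SE 1.08, adjusted p = 0.251), which did not pass the threshold. Ptafr was called in 1 of 22 alternatives, edgeR with no filter (adjusted p = 0.0391).

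Thbd, the thrombin receptor, was at opposite ends of the range in the MCD libraries. It read 6.10 and 39.97 CPM in the γδ control libraries, 188 CPM in MCD replicate 2 and 3.43 CPM in MCD replicate 4. Replicate 2 was the highest of the 4 and replicate 4 the lowest, 54.8-fold apart. The log2 fold change of 2.05 (SE 1.66, adjusted p = 0.522) became -2.72 (adjusted p = 0.499) without MCD replicate 2.

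Cybb, the oxidase subunit, had the highest mean level per length of the 9 genes in γδ T cells, at 53.4 FPKM (fragments scaled by gene length and library depth) on the control and 163 FPKM on the MCD diet. It read 204 and 455 CPM in the control libraries and 1316 and 570 CPM in the MCD libraries. The lower MCD library was above the higher control library. The difference between means (943 ± 527 and 330 ± 178 CPM, SD, n = 2) was 2.86-fold, with a log2 fold change of 1.52 (SE 0.49, adjusted p = 0.174), the smallest adjusted p of the 9. It was called in 3 of 22 alternatives: with DESeq2 (adjusted p = 0.037), with no filter (0.00724) and without MCD replicate 4 (0.0262).

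Itgam and Ly6c2, surface markers often used to sort myeloid cells, did not separate the diets. Itgam read 195 and 445 CPM in the γδ control libraries and 393 and 642 CPM in the γδ MCD libraries, where the lower MCD library lay between the controls. The ratio of means was 1.62 (log2 fold change 0.69, SE 0.77, adjusted p = 0.665). Ly6c2 read 48.7 and 63.9 CPM in the control and 51.7 and 22.6 CPM in the MCD libraries, the only member with a lower mean on the MCD diet (log2 fold change -0.60, SE 0.96, adjusted p = 0.785). Its copy Ly6c1 had 54 and 87 counts in the γδ control libraries and 1 and 3 in the γδ MCD libraries.

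**Figure D2:**
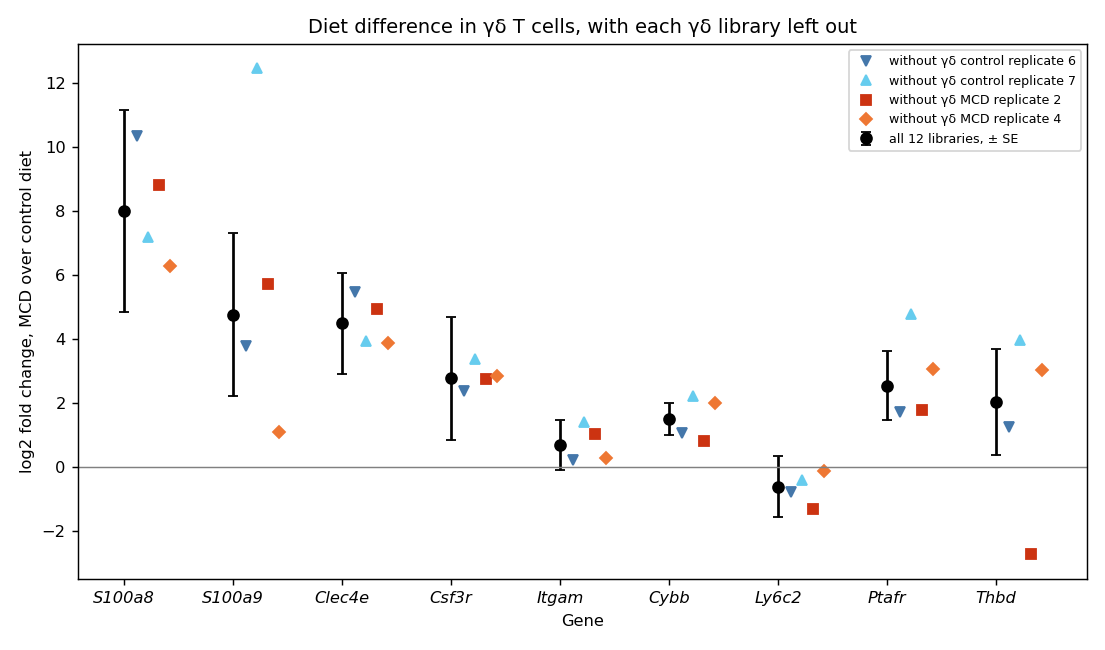
Log2 fold change of each gene, MCD over control diet, in γδ T cells: black circles are the fit on 12 libraries with its standard error, and coloured symbols are the fits with 1 γδ library left out. Thbd crosses 0 without MCD replicate 2 (-2.72) and S100a9 is at 1.12 without MCD replicate 4; the points of S100a8 without control replicate 6 and of S100a9 without control replicate 7 compare with a control library at 0 counts and depend on the prior count.

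The γδ MCD libraries differed in which of the genes they held. MCD replicate 4 exceeded MCD replicate 2 in S100a8, S100a9, Clec4e and Itgam, and replicate 2 exceeded replicate 4 in Csf3r, Cybb, Ly6c2, Ptafr and Thbd. Cybb and Itgam counts were in a ratio of 1.05 and 1.02 in the control libraries, 3.35 in MCD replicate 2 and 0.888 in MCD replicate 4. Summed over the 9 genes, the γδ control libraries read 475 and 1092 CPM and the γδ MCD libraries 2406 and 1641 CPM. Cybb and Itgam together made up 71.0% to 83.9% of that sum in γδ libraries, and calprotectin 0.0107% to 5.04%.

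Levels of different genes were compared per length, on the FPKM scale of the authors' deposited values. Cybb and Itgam were the 2 highest of the 9 in both γδ control libraries, at 32.6 and 28.3 FPKM in replicate 6 and 74.2 and 66.1 FPKM in replicate 7. In MCD replicate 2 the order was led by Cybb (230 FPKM) and Ptafr (86.3 FPKM), ahead of Itgam (62.4 FPKM) and Thbd (51.1 FPKM). In MCD replicate 4 the highest was S100a9 (129 FPKM), followed by Itgam (99.2 FPKM) and Cybb (96.7 FPKM). S100a9 was the lowest or the sixth of the 9 in the control libraries, at 0 and 4.72 FPKM.

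**Figure D3:**
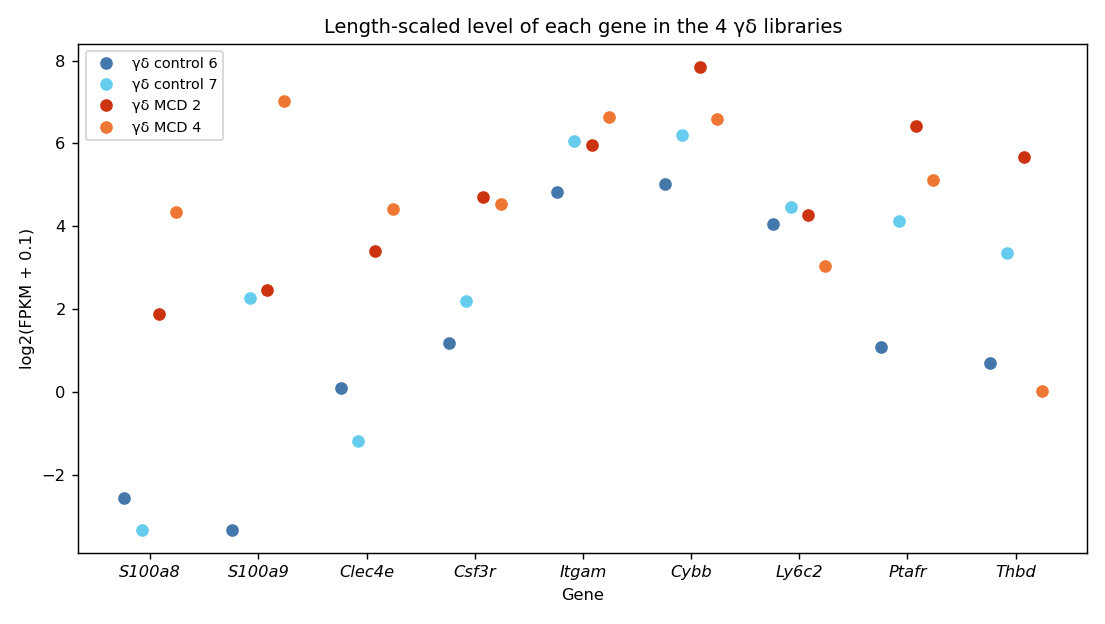
Length-scaled level of each of the 9 genes in the 4 γδ libraries as log2(FPKM + 0.1), 1 point per library. S100a9 spans from 0 FPKM (control replicate 6) to 129 FPKM (MCD replicate 4), and Thbd from 0.91 FPKM (MCD replicate 4) to 51.1 FPKM (MCD replicate 2), while Ly6c2 stays between 8.11 and 22.1 FPKM.

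Against CD4+ libraries of wild-type mice, γδ libraries held far more of most of the 9 genes on either diet. Whether γδ T cells or other cells in these libraries held this RNA was not tested. On the control diet 3 of 9 passed the test higher and 0 lower, against 0.45% of all genes called higher. Of these, Ptafr passed the filter on low counts only through γδ libraries, so its direction was partly fixed by passing. Itgam read 1.73 and 17.3 CPM in the CD4+ libraries and was 33.7-fold higher in γδ T cells (log2 fold change 5.07, SE 0.92, adjusted p = 0.0195). Cybb read 11 and 11.5 CPM in the CD4+ libraries and was 29.3-fold higher in γδ T cells (4.87, SE 0.57, adjusted p = 0.00119). Ptafr had 3 counts in the CD4+ libraries against 1387, a pooled ratio of 543 (exact 95% interval 186 to 2640, adjusted p = 0.0169). These calls were lost in limma-voom (adjusted p = 0.0624, 0.118 and 0.0883). The call of Itgam was also lost without wild-type control replicate 3 (0.0674) or γδ control replicate 7 (0.131). That of Ptafr was lost without wild-type control replicate 2 (0.2) or 3 (0.261) or γδ control replicate 7 (0.0895), and in limma on log2(FPKM + 1) (0.144) or log2(FPKM + 0.1) (0.0594).

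The other 6 members did not pass on the control diet in edgeR as designed. Thbd was called in 4 of 22 alternatives, with DESeq2 (adjusted p = 0.000185), with no filter (3.32e-07), with only the groups compared (0.042) and without γδ MCD replicate 4 (0.0242), and Clec4e in 2, with DESeq2 (0.00495) and with no filter (0.00596). Libraries did not overlap for Clec4e (135 counts against 1, ratio 159, interval 28 to 6310), Thbd (858 against 1, ratio 1008, interval 180 to 39900) and Ly6c2 (5.76-fold, adjusted p = 0.407), besides the 3 called. These 6 of 9 stand beside 20.1% of all genes that were higher without overlap. Among them Clec4e, Ptafr and Thbd passed the filter on low counts only through γδ libraries, so their direction was partly fixed by passing. Csf3r overlapped through the CD4+ library with 462 counts (adjusted p = 0.976), and S100a8 and S100a9 overlapped at or near 0 counts.

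On the MCD diet 5 of 9 passed higher and 0 lower, against 1.47% of all genes. Clec4e was 459-fold higher in γδ T cells than in CD4+ T cells (adjusted p = 0.0358), Itgam 75.5-fold (0.00626), Cybb 33.3-fold (0.000672) and Ptafr 1294-fold (0.00642). Thbd had 2325 counts against 2, a ratio of 1808 (exact 95% interval 500 to 14900, adjusted p = 0.0419). Csf3r, S100a9 and S100a8 had 0 counts in both CD4+ libraries and were at least 620-fold, 249-fold and 58.2-fold higher, set against 3 counts per library. They missed the threshold, with adjusted p = 0.0538, 0.103 and 0.123. Csf3r was called in 11 of 22 alternatives, among them DESeq2 (adjusted p = 3.91e-09), limma-voom (0.0138), no filter (8.31e-10) and only the groups compared (0.02). S100a8 was called in 4 of 21, namely DESeq2 (0.0328), limma-voom (0.0191) and limma on log2(FPKM + 1) (0.0151) and log2(FPKM + 0.1) (0.00643). S100a9 was called in 4 of 22, namely limma-voom (0.0422), limma on log2(FPKM + 0.1) (0.0414), no filter (0.00093) and without γδ MCD replicate 2 (0.0485). Ly6c2 read 12 and 11.5 CPM in the CD4+ libraries and was 3.15-fold higher in γδ T cells (adjusted p = 0.32). All 9 were higher without overlap, beside 14.5% of all genes. S100a8 and S100a9 passed the filter only through the γδ MCD libraries. Passing took 2 libraries, and Clec4e, Ptafr and Thbd reached 10 counts in only 1 CD4+ library, so they passed through γδ libraries. For these genes the higher level in γδ libraries was partly fixed by passing. Cybb was called without any 1 of the 12 libraries in both comparisons, but Clec4e (0.119 and 0.186), Itgam (0.0901 and 0.109) and Ptafr (0.0901 and 0.111) were lost without wild-type MCD replicate 1 or 3. Thbd was lost in limma-voom (0.107), in limma on log2(FPKM + 1) (0.201) and log2(FPKM + 0.1) (0.0873) and in 7 of 12 such fits, most of all in size without γδ MCD replicate 2 (log2 fold change 5.99 in place of 10.79, adjusted p = 0.128). With only the 4 libraries compared, Clec4e (0.11) and Thbd (0.113) did not pass. Scaling by library size alone turned the split of all calls from 73 higher and 33 lower to 41 and 72 on the control diet, and from 239 and 191 to 114 and 634 on the MCD diet.

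In CD4+ T cells the 9 genes were low and no diet or genotype comparison called any of them in edgeR as designed. The diet test in wild-type CD4+ T cells called 0 genes (0%), with 153 higher and 193 lower at an unadjusted p below 0.05, and DESeq2 called 40 genes. Cybb read 11.5 and 11 CPM on the control diet and 19.1 and 37.6 CPM on the MCD diet, higher without overlap (2.52-fold, adjusted p = 1 in edgeR). Members higher without overlap were 3 of 9 and lower 0, beside 16.7% and 17.2% of all genes. Besides Cybb these were Ptafr (7 counts against 3) and Thbd (2 against 1). For both, the lower MCD library and the higher control library had the same raw count, 2 for Ptafr and 1 for Thbd. Only the scaling of the libraries set them apart. Csf3r was at 0 in both wild-type MCD libraries and in 1 of the control libraries. With DESeq2 or with no filter Csf3r was called lower (adjusted p = 6.84e-06 and 6.28e-05), a call that rests on the 462 counts of control replicate 3.

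In knockout CD4+ T cells 6 genes passed the diet test (0.037%), none of them a member. On the control diet Ptafr was at 0 counts in both knockout libraries, and on the MCD diet it had 8 and 85 counts (0.369 and 3.91 CPM), at least 14.7-fold higher (adjusted p = 0.268). It was called with DESeq2 (adjusted p = 0.00175) and with no filter (4.39e-07). Thbd had 124 and 1 counts on the control and 3 and 2 on the MCD diet, so that 1 library made the difference (adjusted p = 0.787, and 0.0485 with no filter). Csf3r, with 15 counts in 1 library, was called with DESeq2 (0.000551). Itgam read 8.04 and 15.6 CPM on the control and 33.0 and 11.7 CPM on the MCD diet, and Cybb 16.8 and 31.8 against 37.6 and 43.6 CPM. Neither passed (adjusted p = 0.891 and 0.815).

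Between genotypes, 4 genes passed on the control diet (0.0247%) and 0 on the MCD diet (0%), again without a member. On the MCD diet 184 genes were higher and 153 lower at an unadjusted p below 0.05, and DESeq2 called 39. Cybb read 24.3 ± 10.6 CPM in knockout and 11.3 ± 0.347 CPM in wild-type CD4+ T cells on the control diet (SD, n = 2, 2.16-fold, adjusted p = 1). Ptafr was 12.7-fold higher in knockout than in wild-type CD4+ T cells on the MCD diet (93 counts against 7, adjusted p = 1). Of the 93 counts, 85 were in knockout MCD replicate 2. Csf3r was called lower in knockout cells on the control diet with DESeq2 (adjusted p = 2.89e-06) and no filter (1.22e-05) and higher on the MCD diet with DESeq2 (0.00217), and Thbd higher on the control diet with no filter (0.00311), each through 1 library. The comparisons by diet, genotype and cell type share libraries and are not independent of each other.

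The tests of whether the diet difference itself differed called no gene in edgeR as designed. For γδ minus wild-type CD4+ T cells, 563 genes were positive and 1151 negative at an unadjusted p below 0.05, DESeq2 called 645, and members had adjusted p = 0.345 (Csf3r) to 1. For knockout minus wild-type CD4+ T cells, 463 genes were positive and 240 negative, DESeq2 called 71, and each member had an adjusted p of 1. Csf3r was called in both with DESeq2 (adjusted p = 0.000222 and 3.53e-10) and with no filter (2.85e-06 and 3.4e-07), calls that include the wild-type control library with 462 counts. In edgeR with the filter, a larger diet difference in γδ than in CD4+ T cells was not shown for any of the 9 genes. For S100a8 and S100a9 neither of these tests could decide, because both genes had 0 counts in every wild-type CD4+ library.

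The order of the 6 groups was alike for most of the genes. γδ T cells on the MCD diet had the highest mean of 8 genes, and the γδ control group came next for 7 of these (all but S100a8), with ranges that overlapped for Itgam and Thbd. For S100a8 the knockout MCD group (0.0461 CPM) stood between the γδ groups, but its range overlapped that of the γδ control group. For Ly6c2 the γδ control group was highest, and the groups of CD4+ T cells, at 9.08 to 11.8 CPM, overlapped each other. Among CD4+ groups the knockout MCD group was highest for S100a8, S100a9, Clec4e, Itgam, Cybb and Ptafr, though its range overlapped that of the next group for all but Ptafr.

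Markers of neutrophils and monocytes in these libraries were read beside the 9 genes. Of 12 neutrophil granule genes 7 (Elane, Mpo, Prtn3, Ctsg, Camp, Ltf and Ngp) and 4 of 16 neutrophil markers (Ly6g, Cxcr1, Retnlg and Wfdc21) were at 0 counts in all 4 γδ libraries. The summed neutrophil markers read 53.0 to 62.0 CPM in γδ control, 163 to 341 CPM in γδ MCD and 0.144 to 7.05 CPM in CD4+ libraries. A few genes made up most of the MCD sums: Fpr1, a formyl peptide receptor, read 139 CPM in MCD replicate 2 and 0.134 CPM in replicate 4. Hdc, which makes histamine, read 138 CPM in replicate 4 and 0 in replicate 2. Hdc is also in the list of mast cell and basophil markers. Acod1, which makes itaconate, read 5.70 CPM in replicate 2 and 125 CPM in replicate 4. Ifitm6 read 17.9 and 29.8 CPM in γδ control and 5.61 and 21.5 CPM in γδ MCD libraries. Of the 11 neutrophil markers tested 7 were higher and 4 lower on the MCD diet, with a median log2 fold change of 0.49 and 0 called. In knockout CD4+ T cells 8 of them were higher and 1 lower (median 2.24), and 0 were called. The summed granule genes read 41.3 to 42.0 CPM in γδ control and 15.4 to 221 CPM in γδ MCD libraries, where Chil3 alone read 189 CPM in MCD replicate 2. Mmp9, a secreted protease and the granule gene with the highest mean, went the other way, at 22.2 and 33.6 CPM in γδ control and 0.825 and 2.35 CPM in γδ MCD libraries (adjusted p = 0.108). Of the 4 granule genes tested 3 were higher and 1 lower on the MCD diet, and 0 were called.

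Monocyte markers were all detected: 14 of 14 had reads in each γδ library, and their sum was 1212 to 2092 CPM on the control diet and 2015 to 2935 CPM on the MCD diet, against 61.9 to 198 CPM in CD4+ libraries. Lyz2, a lysozyme of monocytes and macrophages, read 616 and 1252 CPM in γδ control and 1616 and 1178 CPM in γδ MCD libraries. Csf1r, the receptor for macrophage colony-stimulating factor, read 138 and 212 against 269 and 273 CPM, and at most 11.3 CPM in CD4+ libraries. Of the 14, 11 were higher and 3 lower on the MCD diet, with a median log2 fold change of 0.55 and 0 called. The knockout CD4+ libraries also had 11 higher and 3 lower (median 0.94), with 0 called. Kupffer cell and macrophage markers summed to 280 to 475 CPM on the control and 205 to 412 CPM on the MCD diet, and markers of sinusoidal endothelium to 682 to 1307 CPM and 103 to 122 CPM. T cell markers summed to 2748 to 3198 CPM and 1942 to 2069 CPM. The part of other cells in the levels of the 9 genes was not tested.

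**Figure D4:**
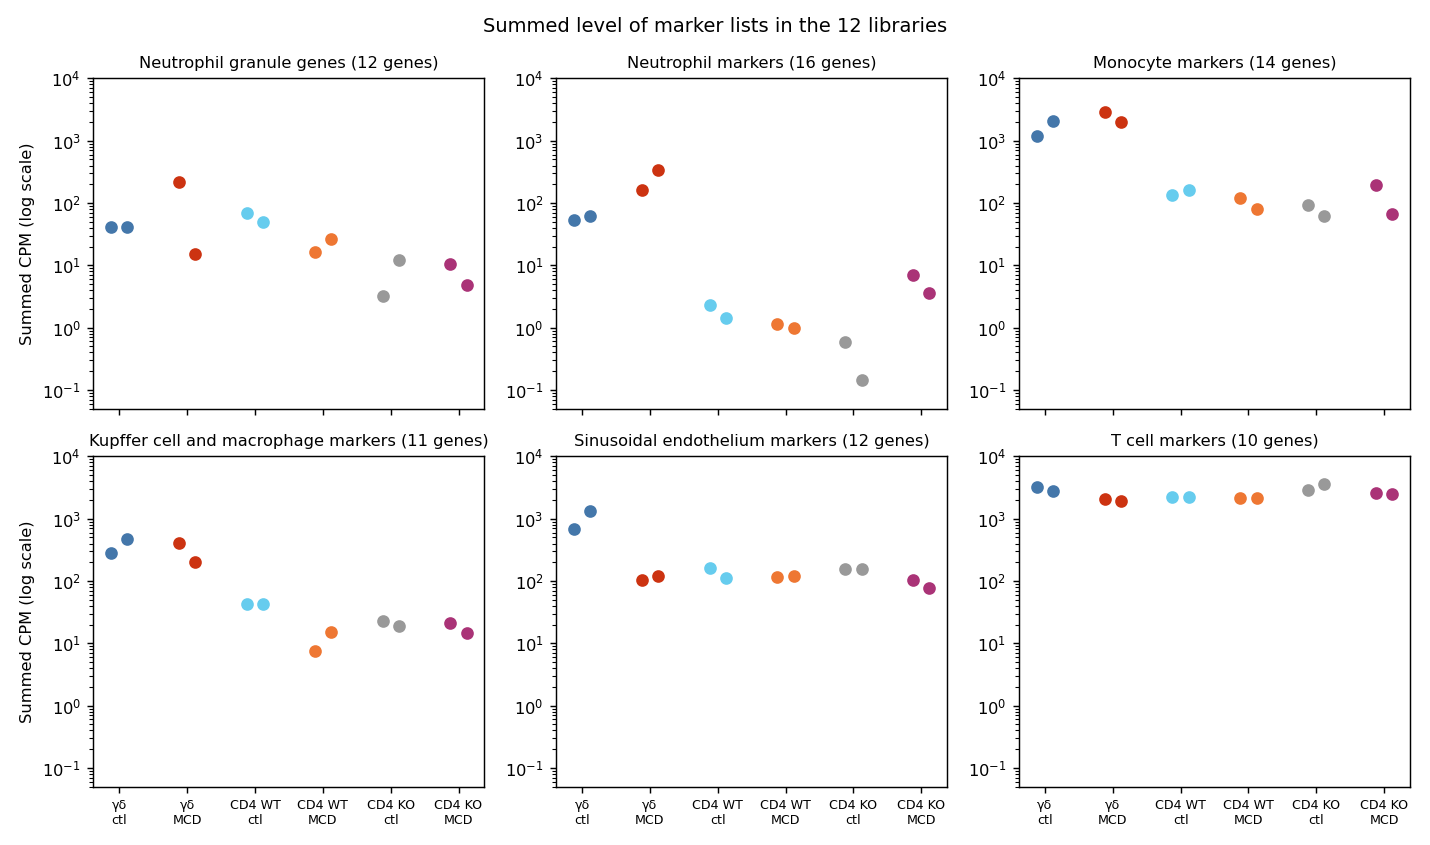
Summed CPM of 6 marker lists in the 12 libraries, on a log axis, 1 point per library. Neutrophil markers are at 53.0 to 62.0 CPM in γδ control and 163 to 341 CPM in γδ MCD libraries, endothelial markers are at 682 to 1307 CPM in γδ control and 103 to 122 CPM in γδ MCD libraries, and monocyte markers in γδ libraries lie above those of CD4+ libraries.

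Genes of the same pathways were compared between diets in γδ T cells, where no gene of the lists passed the test in edgeR. The colony-stimulating factors, their receptors and signalling genes were all higher on the MCD diet, 10 of 10 tested with a median log2 fold change of 1.72; Stat3 read 198 and 110 against 338 and 415 CPM (adjusted p = 0.12). Among 10 inducible inflammatory genes 9 were higher (median 1.35), among them Il1rn, the interleukin-1 receptor antagonist, at 48.0 and 106 against 299 and 337 CPM (adjusted p = 0.199). Of 8 myeloid transcription factors 6 were higher (median 1.03), and Spi1, which encodes PU.1, read 19.7 and 19.8 against 51.2 and 56.6 CPM (adjusted p = 0.484). Over all genes 42.5% were higher. The same lists in knockout CD4+ T cells had diet medians of 0.44 (8 higher, 2 lower), 1.96 (7 and 3, 1 called) and 3.42 (8 and 0). In wild-type CD4+ T cells the medians were 0.14, 0.14 and -0.15.

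The partners of the 9 genes were less even. Of 10 S100 and calprotectin receptor genes 3 were higher and 6 lower (median -0.68); S100a11 read 157 and 230 against 205 and 250 CPM, and S100a4 68.7 and 37.9 against 14.4 and 29.4 CPM. Of 13 genes of C-type lectin signalling 7 were higher and 5 lower (median 0.13), and Fcer1g, the adaptor of Clec4e, read 284 and 259 against 370 and 224 CPM. Beta-2 integrins and ligands were higher in 3 and lower in 5 (median -0.45), and Itgb2, the partner of Itgam, read 829 and 833 against 641 and 700 CPM. Of 7 phagocyte oxidase genes 4 were higher and 3 lower (median 0.31); Ncf1, a cytosolic subunit, read 26.5 and 28.1 CPM on the control diet, 116 CPM in MCD replicate 2 and 25.2 CPM in replicate 4. The platelet-activating factor and leukotriene genes were higher in 8 and lower in 3 (median 0.31), and the protein C and coagulation genes higher in 2 and lower in 7 (median -1.10), where F10 read 6.82 and 3.20 against 130 and 63.2 CPM (adjusted p = 0.197). All 4 Ly6 genes tested were lower (median -2.38), but by unlike amounts. The log2 fold change was -0.04 for Ly6e, at 825 and 915 against 826 and 863 CPM, and -0.12 for Ly6a. It was -4.6 for Ly6c1 and -8.2 for Ly6i, which read at most 4.71 and 2.82 CPM in γδ libraries.

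The 3 genes most alike to each member across the 12 libraries were found by Pearson's r of log2(CPM + 1) among 11910 named genes, as a description of points that share libraries and depth. For S100a8 they were Adgrg6 (r = 0.999), S1pr5 (0.991) and Rnf165 (0.988), and for S100a9 Rab7b (0.989), Prss30 (0.983) and S1pr5 (0.979). Both patterns rest mainly on the γδ MCD libraries: S1pr5 read 1.82 and 11.2 CPM there and at most 0.379 CPM in the other 10. Clec4e was most like Mgst1 (0.991), Osbpl6 (0.977) and Rnf150 (0.975), and Csf3r most like Ret (0.95), Cd300c2 (0.949) and Lrig3 (0.934). Itgam was most like S100a11 (0.975), Csf1r (0.973) and Tlr8 (0.966), and Cybb most like Il1rn (0.968), Abhd2 (0.968) and Marcks (0.967). Ptafr was nearest to Metrnl (0.99), P2ry6 (0.98) and Ptpro (0.976), Thbd to Vcp (0.953), Zfp395 (0.948) and Nlrp1a (0.946), and Ly6c2 to Fxyd5 (0.908), St3gal6 (0.902) and Camk1d (0.895). Among the 9 genes themselves, r was highest between Cybb and Ptafr (0.963), S100a8 and S100a9 (0.944) and Itgam and Cybb (0.934), and lowest between S100a8 and Ly6c2 (0.297).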

How the data were processed

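The members and the 22 gene lists were chosen with earlier results of these data known; 2 listed genes are not reported here and were left out of the list sums and counts. RNA of sorted γδ and CD4+ T cells was sequenced. The submitters' processing notes list the tools bcl2fastq, STAR, featureCounts and DESeq2, without versions, and the build mm10 (GRCm38). The strand setting is not given in the sources used here. The authors deposited raw read counts per gene, and these counts were the input of the main test. The authors also deposited FPKM values. Their denominators followed DESeq2 size factors rather than library totals, as read from the values, and they were used for levels per length and for 2 alternatives.

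Genes were kept by filterByExpr (minimum count 10, minimum total 15), which left 16218 of 52459. All 12 libraries were fitted with 1 coefficient per group by edgeR 4.0.16 in R 4.3.3, with TMM scaling and a 2-sided quasi-likelihood test, and p-values were adjusted over all genes by Benjamini and Hochberg (threshold 0.05). CPM used TMM scaling, and log2 fold changes a prior count of 0.125. Folds are ratios of mean CPM. Against a group at 0, the floor was 3 counts per library (0.13 to 0.248 CPM), and against 1 to 3 counts an exact 95% interval of the pooled ratio was given; both cover counting error only. Of each list up to 4 genes with the highest mean CPM, and any past the threshold, could be named. Gene positions are from GENCODE M21. The scripts were tested on simulated counts. Alternatives were RLE scaling, library size alone, no mitochondrial genes, DESeq2 1.42.0, limma-voom (limma 3.58.1), limma on log2(FPKM + 1) and log2(FPKM + 0.1), no filter, a mean of at least 50 counts, each library left out, only the groups compared, and a block for the replicate number of the knockout libraries.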

Additional observations from a re-analysis of the deposited data

How the results depend on the processing

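Of the diet differences in γδ T cells, Thbd changed sign (-2.72 without γδ MCD replicate 2) and the other 8 members kept their direction in every alternative run. Genes called there, 0 in edgeR as designed, numbered 3 with library size alone, 2 without mitochondrial genes, 2105 in DESeq2, 63 in limma-voom, 148 in limma on log2(FPKM + 1), 210 on log2(FPKM + 0.1), 555 with no filter and 9 with only the groups compared. Of the 9 members 2 were called there in DESeq2, beside 2105 of 16218 genes, and 2 with no filter, beside 555 of 25883. On log2(FPKM + 1) 2 were called, beside 148 of 16218 genes, and on log2(FPKM + 0.1) 1, beside 210. Library size alone moved the median of all genes from -0.06 to -0.28. The diet in wild-type CD4+ T cells gave 40 genes and 1 member in DESeq2 and 19 genes and 1 member with no filter. The diet in knockout CD4+ T cells, with 6 genes called in edgeR, gave 266 genes and 2 members in DESeq2, 105 and 2 with no filter, and 10 (library size), 19 (limma-voom), 15 (log2(FPKM + 1)), 3 (mean of at least 50 counts) and 28 genes (only the groups compared). Genotype on the control diet, with 4 genes called in edgeR, gave 122 genes and 1 member in DESeq2, 52 and 2 with no filter, 2 genes on log2(FPKM + 1) and 11 with only the groups compared. On the MCD diet it gave 39 genes and 1 member in DESeq2, 5 genes on log2(FPKM + 1), 11 with no filter and 1 with only the groups compared. γδ against CD4+ T cells on the control diet, with 106 genes called in edgeR, gave 917 genes and 5 members in DESeq2, 244 and 0 in limma-voom, 354 and 5 with no filter, and 287, 282 and 231 genes on log2(FPKM + 1), log2(FPKM + 0.1) and only the groups compared. On the MCD diet, with 430 genes, it gave 748 genes (library size), 2887 (DESeq2), 787 (limma-voom), 659 (log2(FPKM + 1)), 932 (log2(FPKM + 0.1)), 1071 (no filter), 662 (mean of at least 50 counts) and 62 (only the groups compared). The diet difference in γδ minus wild-type CD4+ gave 645 genes and 1 member in DESeq2, 113 and 1 with no filter and 3 genes on log2(FPKM + 0.1). That in knockout minus wild-type CD4+ gave 71 genes and 1 member in DESeq2, 44 and 1 with no filter, 1 gene in limma-voom and 1 with only the groups compared. The cause of these shifts was not tested.

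Signs turned, never past the threshold, for Itgam in the wild-type CD4+ diet comparison (0.342 in limma-voom, 0.209 on log2(FPKM + 0.1)), Ly6c2 in the knockout one (0.045, library size), and with library size also for Itgam (-0.03) and Ly6c2 (-0.213) between genotypes on the control diet, Csf3r between γδ and CD4+ on the control diet (-0.258) and Cybb in γδ minus wild-type (-0.072).

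Leaving out 1 library at a time, where the lone sample is assumed to vary like the other groups, gave 0 to 1342 genes and 0 to 1 members for the diet in γδ, 0 to 42 genes for the diet in knockout CD4+, 27 to 305 genes and 1 to 4 members for γδ against CD4+ on the control diet, 47 to 2095 and 1 to 6 on the MCD diet, 0 to 6 genes for genotype on the control diet, 0 to 455 for γδ minus wild-type and 0 to 1 for knockout minus wild-type. It gave log2 fold changes of -1.332 to 1.978 (Itgam) and -0.083 to 0.735 (Ly6c2) for the wild-type CD4+ diet, -0.016 to 1.481 (Itgam), -2.744 to 0.612 (Ly6c2) and -5.639 to 1.144 (Thbd) for the knockout diet, -0.547 to 2.763 (Itgam) and -0.391 to 0.614 (Ly6c2) for genotype on the control diet, and -1.756 to 5.791 (Clec4e) and -2.865 to 0.491 (Ly6c2) on the MCD diet. Ranges were -0.639 to 10.965 (Csf3r) for γδ against CD4+ on the control diet, -1.283 to 2.027 (Itgam) and -0.517 to 0.884 (Cybb) for γδ minus wild-type, and -1.059 to 2.251 (Itgam) and -3.013 to 0.343 (Ly6c2) for knockout minus wild-type. For the diet in γδ, Thbd ranged from -2.72 to 3.97.

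Replicate numbers 1 and 2 are shared by the knockout groups, and the libraries' differences correlated at r = 0.0042 over 10626 genes. That gave no sign of pairing over all genes, and pairing that touches only some genes was not tested. A replicate block in these libraries called 7 genes in place of 6. A block with only the knockout groups called 202, against 28 for these groups without it, and neither block called a member. Counts of S100a8 were 0 to 211 per library, and each group had 2 libraries.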
